A study of Homo sapiens with 12 samples.

Results

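The genes described here are 31 astroglial and radial glial genes, taken by symbol from a table of 59653 gene symbols. They were picked as known markers of astrocytes and of radial glia, the progenitors from which neurons and astrocytes arise, and all 31 were found in the table. The study sequenced total RNA of cells labelled as human neurons of IMR-90, an induced pluripotent stem cell line named after fetal lung fibroblasts. Its 12 libraries form 2 groups of 6: siNC had received the negative control siRNA, and siZCC had received siRNA targeting ZCCHC17, a zinc finger protein that the study's title links to neuronal RNA splicing. All come from 1 cell line, and the labels do not say whether replicates are separate cultures, so p-values measure only the spread between these libraries. Titles of the samples include NPC, which is not spelled out there, and the cell type label is neuron. The question here is whether the glial genes moved as 1 group after the siRNA or parted into several.

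Astrocytes clear glutamate and potassium from around synapses, move water and bicarbonate, and join into networks through gap junctions. Radial glia share much of this gene set: SLC1A3, FABP7, SOX9, TTYH1 and HOPX mark progenitors of the developing brain as well as young astrocytes, while AQP4, ALDH1L1 and GFAP are used more often for astrocytes. The nuclear factor I proteins NFIA, NFIB and NFIX, together with SOX9, switch progenitors from making neurons to making glia.

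The genes did not move together. Of the 31 genes, 30 passed the filter on low counts, and 12 of them were higher in siZCC, 5 were lower and 13 were not called (quasi-likelihood test of edgeR; a call is an adjusted p under 0.05, Benjamini-Hochberg over all genes kept). That is 40.0% higher and 16.7% lower, beside 11.4% higher and 10.8% lower, or 22.2% in all, among the 24671 genes kept. Genes kept include many at low counts. Among the 18464 genes with a mean count of at least 50, 2890 were higher and 2683 lower, larger shares in both directions. These are the more like genes, since the 30 had at least 117 counts in every library. The share of the 30 called lower is close to theirs, while the share called higher is well above it. The median log2 fold change of the 30 was 0.05 (0.00799 without siZCC replicate 6), beside -0.0016 over all genes kept. MMD2, SLC4A4, EDNRB, NDRG2 and ALDH1L1 rose most, by 0.42 to 0.91 on the log2 scale. CD44 fell most, by 0.56, followed by FABP7, HOPX, AQP4 and NFIX. GFAP, the intermediate filament by which astrocytes are usually recognised, was not called. These are bulk RNA values, in which fewer cells of a type and less RNA per cell cannot be told apart.

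**Figure D1:**
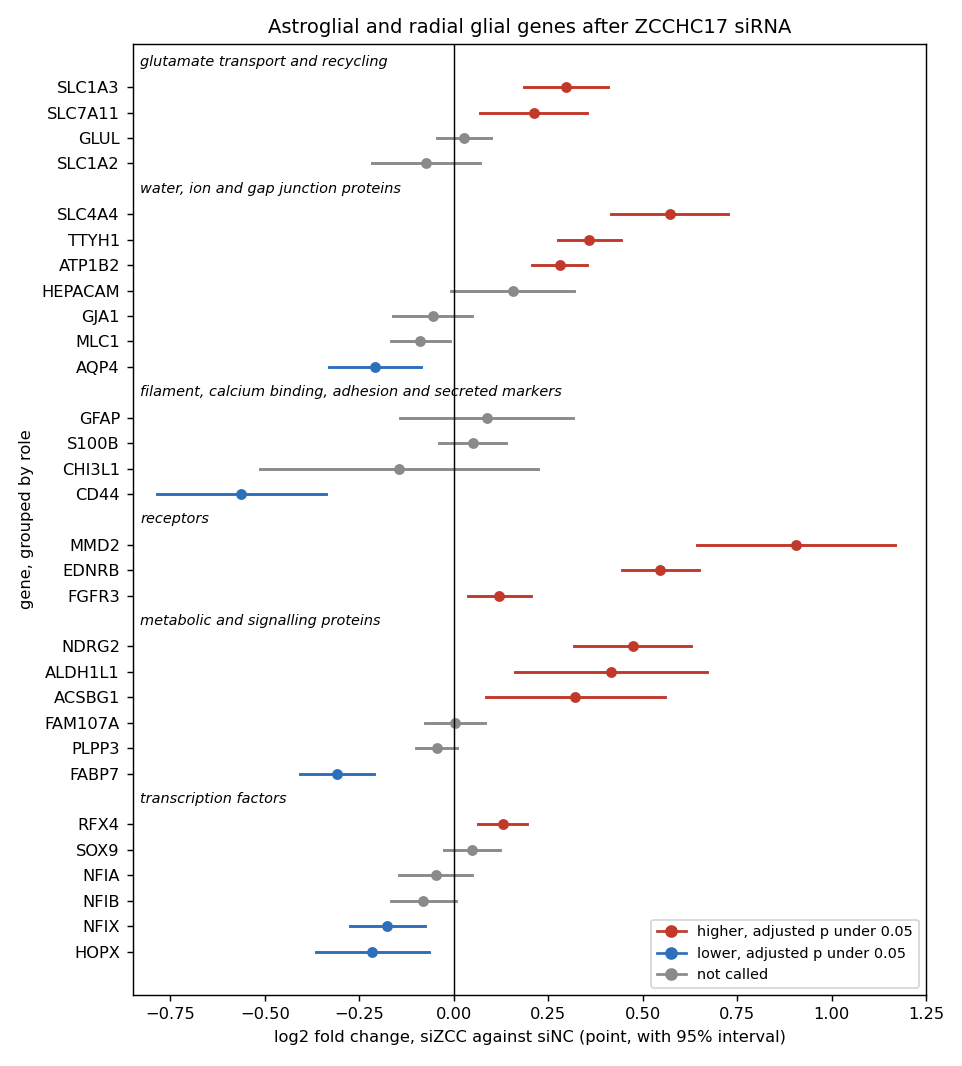
Log2 fold change of the 30 genes kept, siZCC against siNC (x axis), with 95% intervals from the edgeR fit of 6 against 6 libraries, grouped by role (y axis). The 12 red genes lie to the right of 0, the 5 blue genes to the left and the 13 grey genes were not called. All 3 genes grouped as receptors are red, and CD44, a receptor grouped with the surface markers, is blue. The transporters of water and ions, the metabolic genes and the transcription factors each hold red, blue and grey genes.

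Depth was 90755953 to 120023356 counts a library in siNC and 76115083 to 105389055 in siZCC, and the lowest count of any of the 30 genes kept was 117. ZCCHC17, the siRNA's target, stood at 53.99 to 61.0 CPM (counts scaled to library size with TMM factors) in siNC and at 9.37 to 10.6 CPM in siZCC. Within each group 3 libraries held 5.23 to 16.0 CPM of IL1B, an inflammatory cytokine, and the other 3 held 0.0223 to 0.100 CPM. The 31 genes together took 0.704% to 0.746% of a siNC library's counts and 0.746% to 0.813% of a siZCC library's.

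The labelled cell type was checked against marker genes. MAP2 at 1027 ± 104 CPM, NCAM1 at 796 ± 59.2 CPM and DCX at 649 ± 41.8 CPM in siNC (SD, n = 6) were the neuron markers with the highest CPM. RBFOX3 (NeuN) and TUBB3, which mark neurons, stood at only 1.27 ± 0.148 and 14.2 ± 0.629 CPM, while the progenitor genes VIM, PTPRZ1 and NES stood at 3550 ± 109, 1363 ± 171 and 1118 ± 58.8 CPM and the proliferation marker MKI67 at 205 ± 16.8 CPM (SD, n = 6; these genes were chosen after their values were seen, and CPM is not per length). Exon overlap with other genes was examined only for the 31 genes, so whether it lowers the counts of TUBB3 or RBFOX3 was not tested. Both lists held high and low genes. The neuron markers STMN2, GAP43 and INA stood at 484 ± 37.4, 452 ± 27.2 and 449 ± 29.9 CPM in siNC. The radial glial genes HES5 and FZD8 stood at 6.09 ± 0.686 and 1.46 ± 0.369 CPM (SD, n = 6, also chosen after their values were seen). Markers of neurons, of progenitors and of dividing cells were thus all measured in libraries labelled as neurons. Per kilobase of transcript in siNC, TTYH1 (466 CPM per kilobase), FABP7 (243), GJA1 (158) and ATP1B2 (150.1) were the most abundant of the 31 genes by the length of the longest coding transcript in GENCODE v29. By the summed length of all annotated exons the same 4 led in the order FABP7 (185), GJA1 (146), ATP1B2 (144) and TTYH1 (138), so their order rests on the length used. EDNRB, MLC1 and SLC1A3 came next by both lengths, at 102 to 127, 100.2 to 109 and 67.8 to 102 CPM per kilobase. GFAP held rank 8 or rank 10, at 94.1 or 50.8 CPM per kilobase. At the bottom of the order, CHI3L1 and ALDH1L1 stood at no more than 1.06 CPM per kilobase by either length, and GJB6, the connexin 30 gene, had 0 to 9 counts in a library and did not pass the filter.

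The 250 bases before 3 gene starts are shown because NFI, SOX, STAT and RBPJ proteins are known regulators of glial genes: NDRG2 and SLC1A3 rose and have matches to their motifs, and NFIX is the lower gene whose window overlaps no annotated exon. They are RefSeq windows of GRCh38.p14, 5′ to 3′ on the gene's strand, and capitals mark matches to the motifs searched. RefSeq starts need not be those of GENCODE v29. The SLC1A3 window ends at 36596587, well before that gene's GENCODE v29 start at 36606355. The NDRG2 window lies inside the GENCODE v29 gene, which spans 21016763 to 21070872. Which starts were used in these cells was not tested. NDRG2 lies on chr14:21026311-21026560 (minus strand), SLC1A3 on chr5:36596338-36596587 (plus strand) and NFIX on chr19:12995225-12995474 (plus strand).
NDRG2: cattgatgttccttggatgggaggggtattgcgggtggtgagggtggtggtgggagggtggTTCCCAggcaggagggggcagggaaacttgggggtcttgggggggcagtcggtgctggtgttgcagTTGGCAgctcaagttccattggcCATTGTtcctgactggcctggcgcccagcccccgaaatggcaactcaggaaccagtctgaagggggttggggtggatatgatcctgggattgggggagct
SLC1A3: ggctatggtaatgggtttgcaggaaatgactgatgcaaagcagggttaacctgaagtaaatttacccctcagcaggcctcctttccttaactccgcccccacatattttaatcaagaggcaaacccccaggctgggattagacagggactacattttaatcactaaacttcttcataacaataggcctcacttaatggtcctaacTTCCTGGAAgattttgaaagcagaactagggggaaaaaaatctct
NFIX: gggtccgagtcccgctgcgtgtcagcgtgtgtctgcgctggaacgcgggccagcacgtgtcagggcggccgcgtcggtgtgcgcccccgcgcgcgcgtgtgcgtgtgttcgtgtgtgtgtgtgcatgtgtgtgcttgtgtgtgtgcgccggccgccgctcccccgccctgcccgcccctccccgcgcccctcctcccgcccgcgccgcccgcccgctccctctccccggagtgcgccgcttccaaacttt
The NDRG2 window held TTCCCA, the reverse complement of the RBPJ letters, TTGGCA, the core of an NFI site, and CATTGT, the reverse complement of the SOX letters, starting at positions -189, -123 and -100 from the gene start. The SLC1A3 window had 1 STAT match, starting at -45 from the RefSeq start. The CpG-rich NFIX window, with 37 CpG pairs against 1 in that of SLC1A3, had no match.

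Motifs were searched on both strands in the 250 bases before the start of the 25 genes with a RefSeq window, beside 27305 windows of all genes. TTGGCA of NFI was found before 4 of the 25 genes (EDNRB, NDRG2, HEPACAM and GJB6) and in 10.9% of all windows. ACAATG of SOX proteins was found before RFX4 and NDRG2 (9.45% of all windows) and TTCNNNGAA of STAT proteins before SLC1A3 and ACSBG1 (6.78%). TGGGAA of RBPJ stood before 5 genes, namely ALDH1L1, RFX4, NDRG2, GLUL and CHI3L1 (21.1%). No match of one motif overlapped a match of another in these windows. Of the 10 genes with a window that rose, 2 had a match to NFI, 2 to SOX, 2 to STAT and 3 to RBPJ. Of the 5 genes that fell, 0 had a match to any of these. At shares of 6.78% to 21.1% of all windows, few matches to a motif are due in 5 windows. Among the 9 uncalled genes with a window, HEPACAM, GLUL and CHI3L1 had a match. The share of all windows with at least 1 of these motifs was not computed, so the groups cannot be set against it. With so few genes this is a description of letters, not of binding. The windows of genes that rose had a median GC content of 51.0%, those of genes that fell 52.8% and all windows 58.0%.

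Glutamate handling was examined through its transporters and recycling enzyme. SLC1A3 (GLAST, the glutamate transporter of radial glia and astrocytes, chromosome 5 from 36606355 to 36688334 in GENCODE v29) was measured at 384 CPM in the lowest siNC library, a median of 406 and 487 in the highest. In siZCC it ran from 487 through a median of 530.5 to 546 CPM. All 6 siZCC libraries lay above all 6 siNC libraries, the nearest pair by under 1 CPM. The log2 fold change was 0.30 (SE 0.0526, adjusted p 7.46e-04), a rise of 22.8%. Over all genes kept, such a separation with siZCC higher was found in 5.25%, and with siZCC lower in 4.50%.

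SLC1A2 (GLT-1, the transporter that dominates in mature astrocytes) did not pass the test. It stood at 34.9, 39.5 and 46.9 CPM (lowest, median and highest) in siNC and at 33.9, 38.1 and 41.4 CPM in siZCC, with a log2 fold change of -0.07 and a 95% interval from -0.22 to 0.07. That interval lies below the whole interval of SLC1A3, 0.19 to 0.41, although the difference between these genes was not tested. SLC7A11, the cystine-glutamate exchanger, was higher by 0.21 (SE 0.0668, adjusted p 0.0309), from 22.5 to 31.5 CPM in siNC to 28.4 to 32.9 CPM in siZCC, where 2 siZCC libraries exceeded all siNC ones. This call did not pass in 7 of 12 fits made without 1 library (adjusted p up to 0.0859). GLUL, the glutamine synthetase that turns the captured glutamate into glutamine, had a log2 fold change of 0.03 with an interval from -0.04 to 0.10.

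Water, ion and gap junction proteins moved both ways. SLC4A4, a sodium bicarbonate cotransporter of astrocytes, was at 52.5, 60.3 and 78.7 CPM in siNC and at 88.5, 92.1 and 94.6 CPM in siZCC. Every siZCC library lay above every siNC library, and the siZCC values were packed within a coefficient of variation of 2.75% against 15.7% in siNC. Its log2 fold change was 0.57 (SE 0.0735, adjusted p 4.48e-05). TTYH1, a tweety family membrane protein that is abundant in neural progenitors and astrocytes, rose from 922, 973 and 1007 CPM to 1104, 1254 and 1364 CPM. That is 0.36 on the log2 scale (SE 0.0398, adjusted p 1.13e-05), again without overlap of the groups. ATP1B2, the glial beta subunit of the sodium-potassium pump, rose by 0.28 (SE 0.0345, adjusted p 2.93e-05), from 441, 476 and 498 CPM to 538, 578 and 609 CPM, and its groups did not overlap either.

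AQP4, the water channel of astrocyte endfeet, went the other way. It ran through 98.9, 108 and 119 CPM in siNC and 83.1, 95.4 and 103 CPM in siZCC, with 3 siZCC libraries below all siNC libraries and the other 3 within the siNC range. The fall was 0.21 on the log2 scale (SE 0.0575, adjusted p 0.0150). MLC1, which sits with HEPACAM in the junctions of endfeet, was measured at 412, 432 and 444 CPM in siNC and 361, 407 and 431 CPM in siZCC; it missed the threshold at a log2 fold change of -0.09 (adjusted p 0.0968). HEPACAM itself had 0.16 with an interval from -0.01 to 0.32 (adjusted p 0.164), and 37.5% of its exon length lies opposite exons of HEPN1. GJA1, connexin 43, the main gap junction protein of astrocytes and radial glia, had 459, 499.5 and 546 CPM in siNC and 448, 474 and 521 CPM in siZCC, a log2 fold change of -0.06 with an interval from -0.16 to 0.05. Among the 7 genes kept in this role, 3 were thus higher, 1 lower and 3 not called.

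**Figure D2:**
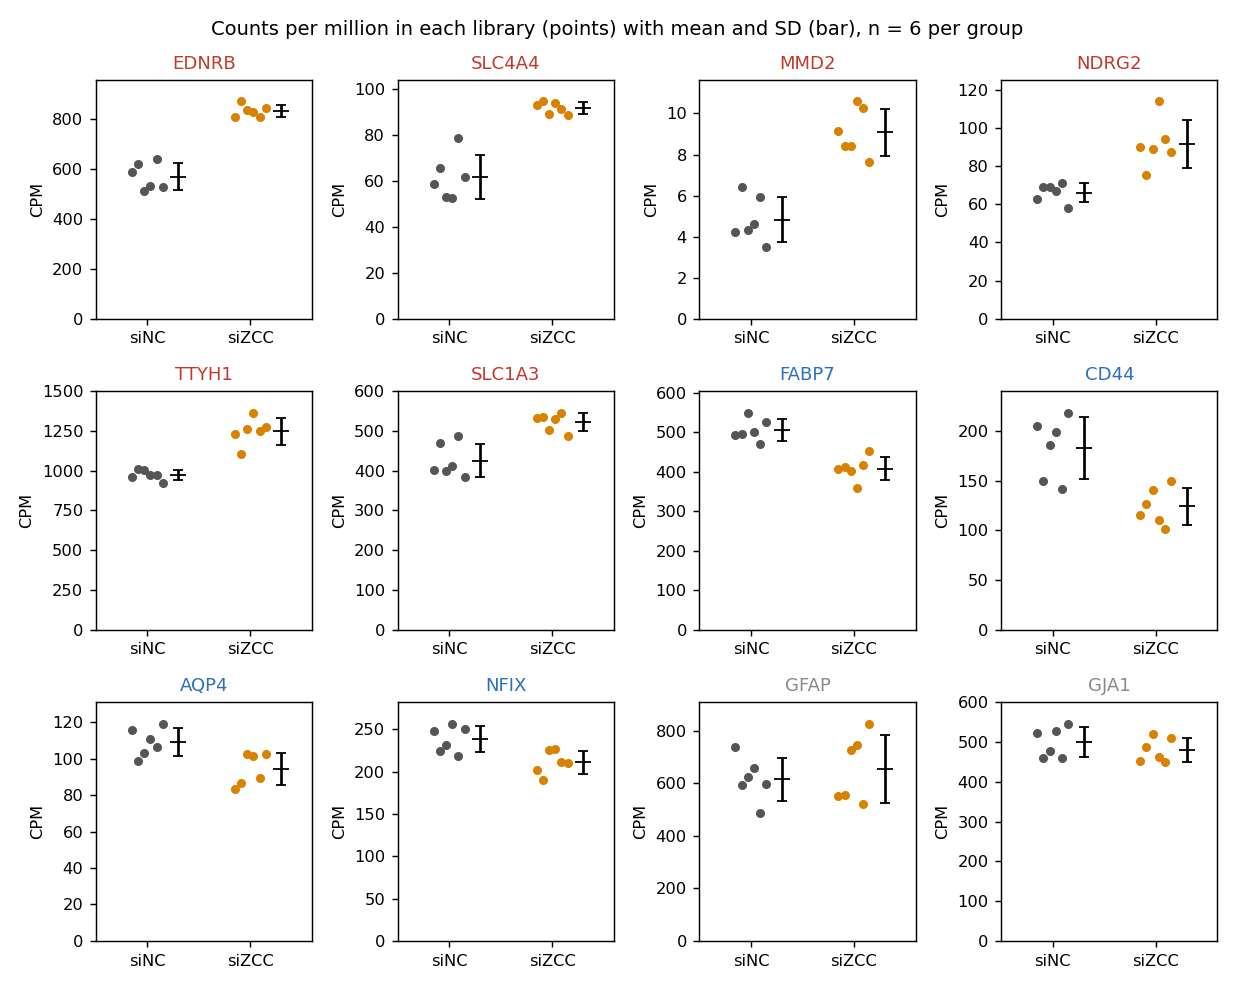
CPM of 12 of the genes (y axis, starting at 0) in the 6 siNC and 6 siZCC libraries (x axis), with mean and SD of each group; title colours give the call as higher (red), lower (blue) or not called (grey). The points of EDNRB, SLC4A4, MMD2, NDRG2, TTYH1 and SLC1A3 do not overlap between groups and neither do those of FABP7, whereas those of CD44, AQP4, NFIX, GFAP and GJA1 do.

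The filament, calcium-binding and surface markers held the largest fall of the 30 genes. CD44, the hyaluronan receptor of astrocyte-restricted progenitors and of reactive or fibrous astrocytes, had 141, 192 and 219 CPM in siNC and 101.5, 121 and 150.1 CPM in siZCC. The groups met only at the edge: 5 of the 6 siZCC libraries lay below every siNC library, and siZCC replicate 6 lay above the lowest 2 siNC libraries, replicates 2 and 5. The fall was 0.56 on the log2 scale (SE 0.106, adjusted p 0.00118), or 32.3%. Mesenchymal cells also make CD44. Of 14 mesenchymal and fibroblast markers, 5 fell, among them ACTA2 (by 0.57) and TAGLN (by 0.75), PDGFRB rose by 0.42 and 8 were not called, among them FN1, and their summed level was 756 to 1182 CPM with the control siRNA and 598 to 888 CPM with siZCC; the part of such cells in the CD44 value was not tested.

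GFAP varied widely within both groups. Its siNC libraries stood at 488, 609 and 737 CPM and its siZCC libraries at 519, 639 and 826 CPM, with coefficients of variation of 13.3% and 19.6%. The groups overlapped over most of their range, with siZCC replicates 4 and 6 above every siNC library. The log2 fold change of 0.09 (SE 0.109) therefore had a 95% interval from -0.14 to 0.32, wide enough to hold the rise of SLC1A3, and 18.4% of its annotated exon length lies opposite exons of CCDC103 and FAM187A. S100B, a calcium-binding protein of astrocytes, had 0.05 with an interval from -0.04 to 0.14. CHI3L1 (YKL-40, a secreted protein of reactive astrocytes) was low, at 1.39 to 2.42 CPM in siNC and 1.39 to 2.75 CPM in siZCC, and its interval ran from -0.51 to 0.22.

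All 3 genes grouped as receptors were higher. CD44, also a receptor, was grouped with the surface markers and was lower. EDNRB, the endothelin receptor type B of astrocytes and progenitors (chromosome 13 from 77895481 to 77975529, minus strand), had the smallest p of the 31 genes. Its siNC libraries stood at 511, 561 and 639.9 CPM and its siZCC libraries at 807, 832 and 871 CPM, so that the lowest siZCC library was far above the highest siNC one. The rise was 0.55 on the log2 scale (SE 0.0484, adjusted p 1.36e-06), or 46.1%. MMD2, a member of the progestin and adipoQ receptor family that is induced during astrocyte formation, rose by 0.91 (SE 0.124, adjusted p 8.05e-05) from a low level, 3.48, 4.47 and 6.41 CPM in siNC against 7.65, 8.78 and 10.6 CPM in siZCC. FGFR3, the fibroblast growth factor receptor of radial glia and astrocytes, was higher by less, at 244, 255 and 279.6 CPM against 257, 278 and 301 CPM. Its log2 fold change of 0.12 (SE 0.0397, adjusted p 0.0371) did not pass in 9 of 12 fits made without 1 library (adjusted p up to 0.101).

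Metabolic and signalling proteins moved both ways. NDRG2, a differentiation-associated protein of astrocytes, rose from 57.8, 67.8 and 71.0 CPM to 75.3, 89.6 and 114 CPM, a log2 fold change of 0.47 (SE 0.0735, adjusted p 2.48e-04) with no overlap of the groups. ALDH1L1, the folate enzyme widely used as a pan-astrocyte marker, rose by 0.42 (SE 0.121, adjusted p 0.0198) from a very low level, 2.06, 2.13 and 2.47 CPM to 1.88, 3.10 and 3.61 CPM. Of its siZCC libraries 5 lay above all siNC libraries and 1, replicate 4, below them all. ACSBG1, an acyl-CoA synthetase of glia, was higher by 0.32 (SE 0.112), with an adjusted p of 0.0483 that exceeded 0.05 in 7 of the 12 fits without 1 library, and 31.7% of its exon length lies opposite exons of IDH3A.

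FABP7 (brain lipid-binding protein, the classical radial glial marker; chromosome 6 from 122779475 to 122784074) was the only one of the 5 lower genes whose groups did not overlap. It stood at 469.7, 498 and 550.4 CPM in siNC and at 359.9, 409 and 453 CPM in siZCC. The log2 fold change of -0.31 (SE 0.0463, adjusted p 1.87e-04) is a fall of 19.2%. PLPP3, a lipid phosphate phosphatase of astrocytes, and FAM107A, an outer radial glial gene, had log2 fold changes of -0.05 (interval -0.10 to 0.01) and 0.00 (interval -0.08 to 0.08). Of the exon length of PLPP3, 10.9% is shared with AC119674.2, a protein-coding gene on the same strand.

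Among the transcription factors, changes were small in both directions. RFX4, a winged-helix factor of radial glia and astrocytes, rose by 0.13 (SE 0.0304, adjusted p 0.00569), from 176, 184 and 190.2 CPM to 189.8, 199.8 and 211 CPM. NFIX fell by 0.18 (SE 0.0471, adjusted p 0.0125), from 218, 239.8 and 256 CPM to 190.2, 211 and 227 CPM, with 4 siZCC libraries below all siNC libraries. Its relatives NFIA (-0.05, interval -0.14 to 0.05) and NFIB (-0.08, interval -0.17 to 0.00) were not called, with siNC values of 139.8 to 159 and 216 to 248 CPM and siZCC values of 128 to 154 and 204 to 229 CPM. SOX9 had 0.05 with an interval from -0.03 to 0.12, and 4 of its siZCC libraries lay above all siNC libraries. HOPX, a homeodomain protein of outer radial glia, fell by 0.22 (SE 0.0709, adjusted p 0.0368), from 29.9, 34.4 and 36.4 CPM to 23.7, 29.2 and 35.2 CPM, and lost this call in 9 of the 12 fits without 1 library (adjusted p up to 0.0819).

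**Figure D3:**
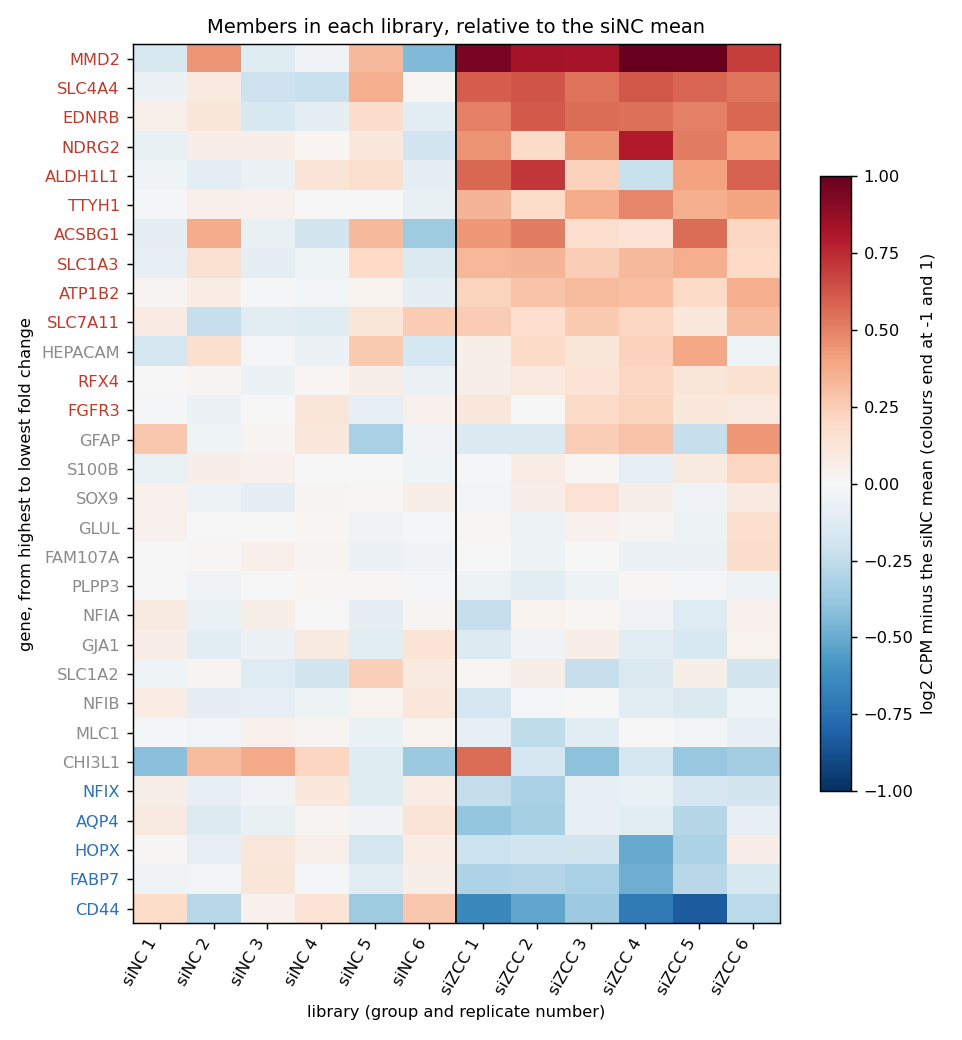
Log2 CPM of each gene minus its siNC mean (colour, ending at -1 and 1) in the 12 libraries (x axis), genes ordered by log2 fold change (y axis) with names coloured by call as in the plot of fold changes. The siZCC columns are red for the genes at the top and blue for those at the bottom, and within siNC the columns of replicates 2 and 5 are redder at the top and bluer at the bottom than that of replicate 6.

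The called genes were also ordered alike among the control libraries. Of the 12 genes higher in siZCC, siNC replicate 5 was among the highest 2 of the 6 siNC libraries for 10 and siNC replicate 2 for 9, while siNC replicate 6 was among the lowest 2 for 9. For the 5 genes lower in siZCC the order was turned round: siNC replicate 6 was among the highest 2 for all 5, and replicates 2 and 5 were each among the lowest 2 for 4. The median deviation from the siNC mean of the 12 genes was 0.14 in replicate 5, 0.07 in replicate 2 and -0.10 in replicate 6 on the log2 scale, beside a median log2 fold change of 0.34 of the same genes. ZCCHC17 was at 57.5, 56.9 and 54.7 CPM in siNC replicates 2, 5 and 6, within the 53.99 to 61.0 CPM of all siNC libraries. Within siZCC the median deviation of the 12 genes from the siZCC mean lay between -0.01 and 0.03, whereas the 5 lower genes ranged from -0.15 in replicate 4 to 0.15 in replicate 6. These are ranks of libraries within a group, given as a description with no test. The same ranks were not computed for all genes called or kept. Whether this order is particular to the glial genes is therefore not known, and any link to the level of ZCCHC17 was not tested.

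All 17 called genes had the same direction on both sides of the IL1B split when the 3 high and the 3 low libraries of each group were fitted apart, although they had been called on all these libraries. The sizes were not alike. CD44 had -0.76 in the libraries with high IL1B and -0.39 in those with low IL1B, HOPX -0.38 and -0.07, FABP7 -0.41 and -0.21, NDRG2 0.61 and 0.33, and MMD2 1.07 and 0.73, while EDNRB had 0.56 and 0.53. The order was turned round for ATP1B2 with 0.25 and 0.31, ALDH1L1 with 0.38 and 0.44, SLC7A11 with 0.20 and 0.22, and NFIX with -0.15 and -0.21. With only 3 against 3 libraries, 7 genes were called higher and 3 lower on the high side, and 6 and 1 on the low side. Whether the sizes differ between the sides was not tested.

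**Figure D4:**
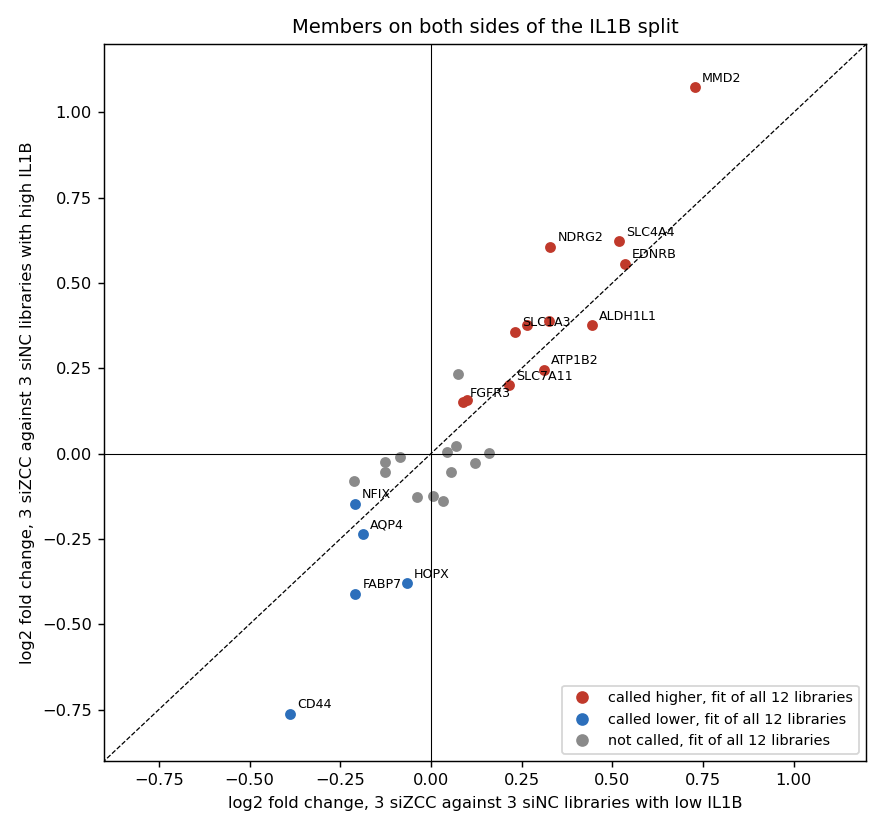
Log2 fold change of the 30 genes kept, in the libraries with low IL1B (x axis) and with high IL1B (y axis), each from 3 siZCC against 3 siNC libraries; the dashed line marks equal values and colours give the call from all 12 libraries. All called genes lie at the lower left or upper right of 0, and CD44, HOPX, FABP7, NDRG2 and MMD2 lie farther from 0 on the high side, whereas ATP1B2, ALDH1L1, SLC7A11 and NFIX lie farther from 0 on the low side.

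Glial genes outside the 31 also moved both ways. Of 28 further astroglial genes kept, 13 were higher and 6 lower (46.4% and 21.4%, median log2 fold change 0.14). ALDOC, an astrocyte form of the glycolytic aldolase, rose by 0.98 (SE 0.0877), NTRK2, whose truncated receptor form is typical of astrocytes, by 0.45 (SE 0.0487), DTNA, a dystrophin-complex protein, by 0.27 (SE 0.0269) and the lipoprotein gene APOE by 0.48 (SE 0.0545). Of 33 further radial glial genes kept, 13 were higher and 6 lower (39.4% and 18.2%, median 0.04). BCAN, a brain proteoglycan, averaged 881 ± 55.2 CPM with the control siRNA and 1382 ± 176 CPM with siZCC (SD, n = 6), 0.65 higher on the log2 scale (SE 0.0669). MOXD1 rose by 0.42 (SE 0.0485) and SOX2, the progenitor transcription factor, by 0.20 (SE 0.0280), whereas ASPM, a spindle protein of dividing progenitors, fell by 0.57 (SE 0.0668). The adjusted p of these 8 genes was at most 8.08e-05.

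Genes of the signals that induce astrocytes showed few calls. Of 32 kept, 4 were higher and 3 lower (12.5% and 9.38%), near the shares of all genes, and their median was -0.04. CNTFR, the receptor subunit for ciliary neurotrophic factor, rose by 0.40 (SE 0.0543), HES5, a Notch target, by 0.35 (SE 0.0790) and SOX8 by 0.13 (SE 0.0324), while SOCS3, a feedback target of STAT3, fell by 0.51 (SE 0.0918). Their adjusted p ran from 8.23e-05 to 0.0104. Reactive astrocyte genes were more often lower than higher, with 1 higher and 7 lower of 27 (3.70% and 25.9%) and a median of -0.01. CP, ceruloplasmin, fell by 0.93 and OSMR, the oncostatin M receptor, by 0.74, beside the fall of CD44 and the uncalled CHI3L1.

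**Figure D5:**
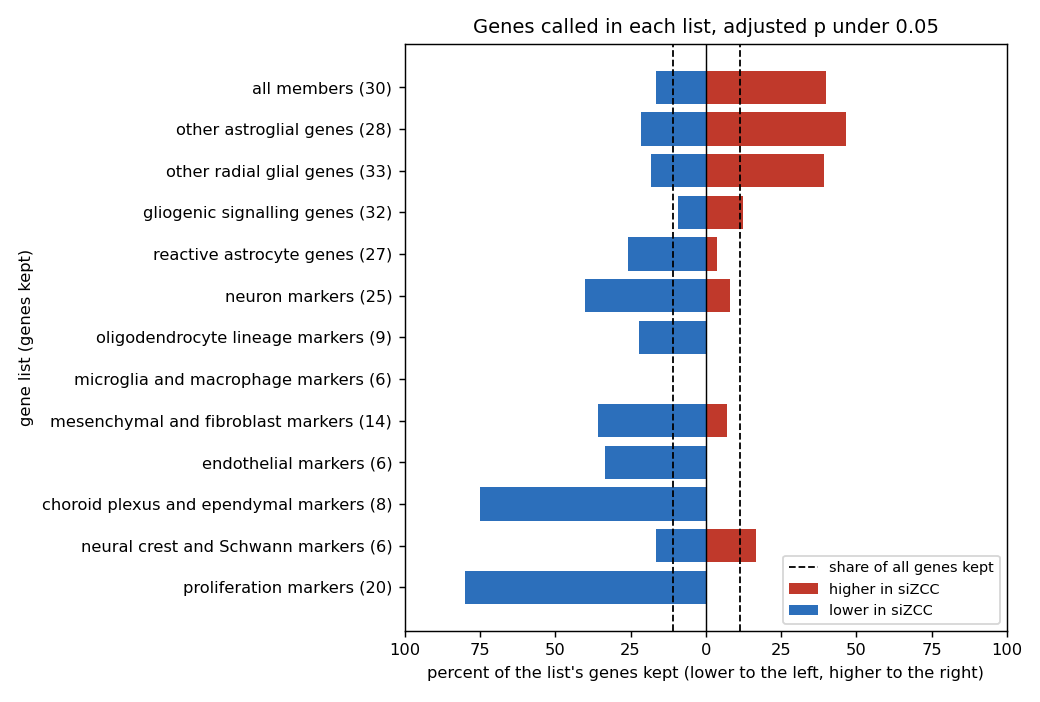
Percent of each list's genes kept that were called lower (bars to the left) or higher (bars to the right) in siZCC at an adjusted p under 0.05, with the number kept in brackets; dashed lines mark the shares over all genes kept, 10.8% lower and 11.4% higher. The 3 glial lists at the top have the longest bars to the right, and the proliferation and ependymal markers the longest to the left.

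Markers of the other cell types that such a culture could hold moved as well, and their part in the glial values was not tested. Proliferation markers had 0 higher and 16 lower of 20 (median -0.33), with their summed level at 1271 to 1405 CPM in siNC and 1020 to 1183 CPM in siZCC; CCNB1 and BIRC5 fell by 0.61 and 0.51, and the most abundant, TOP2A, MKI67 and CENPF, by 0.24, 0.52 and 0.40. Neuron markers had 2 higher and 10 lower of 25 (median -0.09), NSG1 and DCX falling by 0.26 and 0.23, with summed levels that overlapped at 6126 to 6821 CPM and 5669 to 6397 CPM. Choroid plexus and ependymal markers had 0 higher and 6 lower of 8 (median -0.37; summed 171 to 221 CPM and 130.5 to 176 CPM), among them KRT18, CFAP126, OTX2 and the cilium regulator FOXJ1, which averaged 90.2 ± 10.8 CPM with the control siRNA against 68.2 ± 9.69 CPM with siZCC (SD, n = 6). PIFO, also abundant, was not called. The mesenchymal markers described with CD44 had a median of -0.21, and FN1, the most abundant of them, had -0.39 and was not called.

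Against 22.2% called among all genes kept, the remaining classes had 0% (microglia), 22.2% (oligodendrocyte lineage), 33.3% (endothelial) and 33.3% (neural crest), each over at most 9 genes kept. Microglia and macrophage markers summed to 4.04 to 5.99 CPM in siNC and 4.01 to 6.03 CPM in siZCC, with 12 of 14 below 1 CPM and 0 of the 6 kept called (edgeR; unadjusted p under 0.05 in 0 of them); CD14, CSF1R and SPI1 were the most abundant. Endothelial markers summed to 13.1 to 18.3 and 9.37 to 11.3 CPM, with 8 of 10 below 1 CPM and 2 lower of 6 kept, CLDN5 and TEK, while KDR was not called. Neural crest and Schwann markers summed to 26.6 to 28.4 and 25.8 to 27.7 CPM, with NGFR falling by 0.68, ERBB3 rising by 0.35 and TFAP2A not called. Of the oligodendrocyte lineage markers 0 were higher and 2 lower of 9 kept (summed 420.3 to 473 and 412 to 468 CPM), ERMN and PDGFRA, and 7 of 14 stood below 1 CPM; CNP and CSPG4 were not called.

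What the higher and the lower genes had in common was limited. The 12 higher genes lay on 10 chromosomes and the 5 lower genes on 5. Median siNC levels were 124 CPM for the higher genes, 183 CPM for the lower and 229.6 CPM for the 13 not called. Correcting for summed exon length and GC content left 11 genes higher and 7 lower, adding MLC1 and NFIB to the lower genes and dropping FGFR3. Of the 17 calls, 9 higher and 4 lower ones were made again in every one of the 12 fits that left out 1 library; the other 4 were SLC7A11, FGFR3, ACSBG1 and HOPX.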

How the data were processed

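The authors deposited whole-number counts per gene symbol, 1 column per library; the submitters' processing notes name bcl2fastq 2.17, STAR 2.7.6a, featureCounts 2.0.1 and GRCh38. Per the labels, cells were lysed in Qiazol and libraries were made with a directional NEBNext kit. The annotation and strand setting are not given in the sources used here, so reads of antisense or overlapping genes cannot be told apart.

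Unchanged deposited counts went into edgeR 4.0.16 (R 4.3.3): filterByExpr (about 0.0997 CPM in enough libraries, 24671 genes kept), TMM factors, and the quasi-likelihood test of 6 against 6 libraries with no covariates. A call is a Benjamini-Hochberg adjusted p under 0.05 over all genes kept. SE is the size of the log2 fold change divided by the square root of F, and intervals are 95%. Where 3 CPM values are given for a group they are the lowest, median and highest of its 6 libraries. Chi-square per degree of freedom between libraries of a group was at least 5.15, so none was a copy of another. The test was also run on simulated data in which 200 genes were changed. That is far fewer than the 5481 genes called here, so the check does not cover such a setting. Symbols were matched to GENCODE v29 (92.2% found) for lengths and positions, and to RefSeq promoter windows (GRCh38.p14).

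The members and lists were chosen with earlier results of these data known. All 31 members are named, and from every other list, by a rule set with them, the genes with the smallest p among those called (up to 4 for astroglial, radial glial and gliogenic genes, 2 otherwise) and abundant markers are named, except 1 that is not reported here. Alternatives used DESeq2 1.42.0, limma 3.58.1 and sva 3.50.0. Libraries were split by IL1B counts, a measured value. Figures were drawn with matplotlib 3.10.9.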

Additional observations from a re-analysis of the deposited data

Results flagged for a closer look

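Over 64 sets of 6 libraries (the 30 genes kept, ZCCHC17 and library totals, in each treatment), 3 held a library set apart by Dixon's 95% criterion, where 3.2 are due by chance. CHI3L1 was highest in siZCC replicate 1, at 1.47 against 0.50 to 0.74 in log2 CPM, so that its distance to the next library took 0.747 of the range. FAM107A was highest in siZCC replicate 6, at 8.23 against 7.99 to 8.05 in log2 CPM, or 0.725 of the range. Depth was lowest in siNC replicate 4, with 90755953 counts, or 0.657 of the range below the next library, and the other 5 had 109973707 to 120023356.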

How the results depend on the processing

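The count of 12 higher and 5 lower genes stayed between 10 and 13 higher and between 5 and 7 lower under DESeq2 size factors, upper quartile scaling, other filters, limma voom, the Wald test of DESeq2, the replicate block, 1 surrogate variable, IL1B as a covariate, the GC and length correction and thinning. A minimum change of 1.2-fold, a stricter test by construction, left 3 higher genes (MMD2, EDNRB and SLC4A4), 0 lower and 349 genes in all instead of 5481. With fewer samples, the high IL1B libraries gave 2043 genes, 7 members higher, 3 lower and a median of 0.00317, and the low ones 1602 genes, 6 higher, 1 lower and a median of 0.0718.

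Leaving out 1 library gave 4484 to 5626 genes, 9 to 12 members higher and 4 to 5 lower. The median of 0.05 ranged from 0.00799, without siZCC replicate 6, to 0.0610; the cause was not tested. The labels do not say whether libraries with the same replicate number are paired. Their deviations correlated between -0.08 and 0.02, and 0 of 6 libraries matched their own number best. This does not settle whether they share a culture. With the replicate block 4902 genes were called, with 13 members higher, HEPACAM added, and 5 lower.

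No called gene changed direction in any of these fits. Uncalled genes near 0 did. FAM107A (0.0033) turned to -0.0054 with upper quartile scaling, -0.0026 with no filter, -0.0053 with the GC and length correction, -0.0053 with thinning, -0.0531 in the high IL1B libraries, and ranged from -0.0385 to 0.0184 without 1 library. S100B had -0.0270 in the high IL1B libraries, GJA1 0.0061 and NFIA 0.0335 in the low ones, and GLUL ranged from -0.0067 to 0.0425 without 1 library. Thinning every library to the smallest total left 5200 genes called, with 11 members higher and 5 lower, and dropped ACSBG1. Thinning evens out depth between libraries, so it cannot show how far depth limits the calls.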
